A study of Mus musculus with 2 samples.

Results

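The genes described here are 10 transcription factors that pattern the cerebellum and set up its cell lineages: En1, En2, Barhl1, Lhx1, Lhx5, Atoh1, Ptf1a, Gbx2, Pax2 and Pax6. They were followed through 2 lists of m6A sites from a female newborn (postnatal day 0, P0) of the F1r cross, 1 list for the cerebellum and 1 for the cerebrum, where F1r is the offspring of a C57BL/6J (C57) mother and a PWK/PhJ (PWK) father. Every listed position inside the GENCODE M21 interval of a member and on its strand was taken, which gave 43 of the 79355 cerebellum sites, 7 of the 188295 cerebrum sites and 47 different sites among the 219409 of both lists. In GLORI, glyoxal and nitrite deaminate the adenosines of RNA that carry no methyl group, which are then read as G, whereas m6A keeps being read as A. The authors listed a site where the methylation rate was above 0.1 and the read count above 8. The lists hold positions with neither rate nor count. Depth is therefore unknown, and the absence of a position can mean no methylation, no expression or thin coverage. In such whole tissue, fewer cells of a type and less RNA per cell cannot be told apart. With 1 library per tissue no difference between the tissues was tested, and the values below describe these libraries. Intervals are exact 95% Clopper-Pearson intervals and cover counting error over sites only, treating the sites or adenosines of 1 transcript as independent.

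m6A is placed on nuclear transcripts by the METTL3-METTL14 methyltransferase, mostly at an adenosine inside the motif DRACH (D stands for any base but C, R for a purine and H for any base but G, with the methylated A at the centre). It is known for its concentration in long last exons around stop codons and for its scarcity near exon junctions, and YTH-domain proteins that bind it promote decay of the transcript. In the cerebellar primordium, En1, En2, Gbx2 and Pax2 act at the midbrain-hindbrain boundary, Atoh1 and Ptf1a specify the glutamatergic and GABAergic lineages, Barhl1 and Pax6 act in granule cell precursors, and Lhx1 and Lhx5 act in the differentiating Purkinje cells.

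Before the members, the tissue labels were checked by listed sites. All 12 cerebrum marker genes had more sites in the cerebrum library, with 341 sites in all against 42. This is close to the pattern of all coding genes with a site, of which 4.51% had more cerebellum sites and 4.49% as many in each, so the count of 12 says little about the tissue. Of these 12 genes, 7 had 0 sites in the cerebellum library, Tbr1 included. Cerebrum sites with 0 cerebellum sites were found in 29.7% of all coding genes with a site, and the cerebrum list is the longer one. Of 12 cerebellum marker genes, 2 (En2 and Barhl1, which are members) had more sites in the cerebellum library, 6 had more in the cerebrum library, 1 had as many in each, and Skor2, Cbln3 and Gabra6 were listed in neither. Chromosome Y held 14 cerebellum and 30 cerebrum sites although both libraries are labelled female, and no member lies on that chromosome.

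Sites clustered on a few of the members. Barhl1 and Lhx1 each carried 12 sites in the cerebellum library and 1 in the cerebrum library. En2 carried 9 cerebellum sites, En1 carried 6 and Lhx5 carried 1, and none of these had a cerebrum site. Gbx2 carried 3 in each library, Pax6 carried 0 in the cerebellum and 2 in the cerebrum, and Atoh1, Ptf1a and Pax2 carried 0 in both. Thus both tissues contributed to Gbx2, Lhx1 and Barhl1, while Pax6 was listed in the cerebrum alone.

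**Figure D1:**
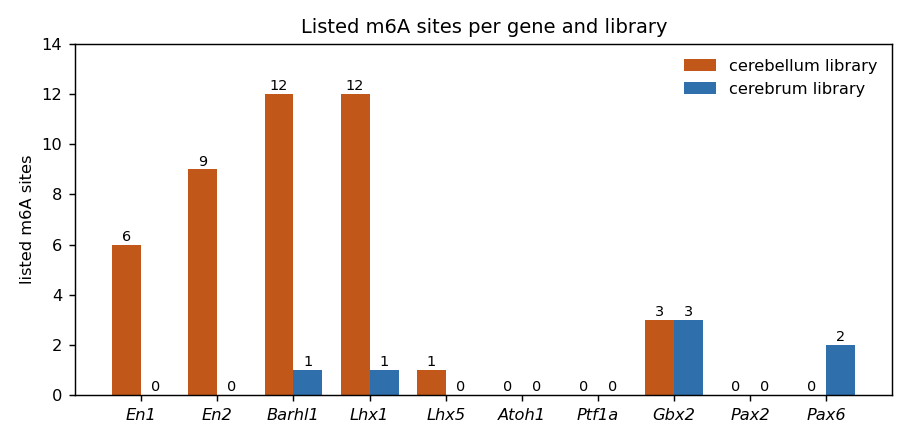
Bars give the number of listed m6A sites (vertical axis) of each gene (horizontal axis) in the cerebellum library and in the cerebrum library, 1 library per tissue. Barhl1 and Lhx1 reached 12 cerebellum sites, Gbx2 had 3 in each library, and Pax6 had its 2 sites in the cerebrum.

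The counts were set beside those of all coding genes. Among the 21951 coding genes of the annotation, 41.2% had a site in the cerebellum library and 57.4% in the cerebrum library, while 41.4% had none in either. Of the 10 members, 6, 4 and 3 did so, which is near these shares. Of the 12874 coding genes with a site in either library, 4.51% had more cerebellum than cerebrum sites, against 5 of the 7 members with a site. Cerebellum sites with 0 cerebrum sites were found in 2.09% of these genes and in 3 of the 7 (En1, En2 and Lhx5). The opposite pattern, as in Pax6, was found in 29.7%, and equal numbers, as in Gbx2, in 4.49%. Among genes with at least 6 cerebellum sites, 0.609% had 0 cerebrum sites, and En1 and En2 were among these 22 genes. The limit of 6 equals the cerebellum count of En1, so that En1 just enters this class. Ranked by cerebellum minus cerebrum sites, Barhl1 and Lhx1 were both at 11, a difference that 17 of the 12874 genes reached. En2 was at 9, reached by 25 genes, and En1 at 6, reached by 50. The members were chosen for their role in the cerebellum and with earlier results of these data known, so these positions describe the genes and give no independent support.

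**Figure D2:**
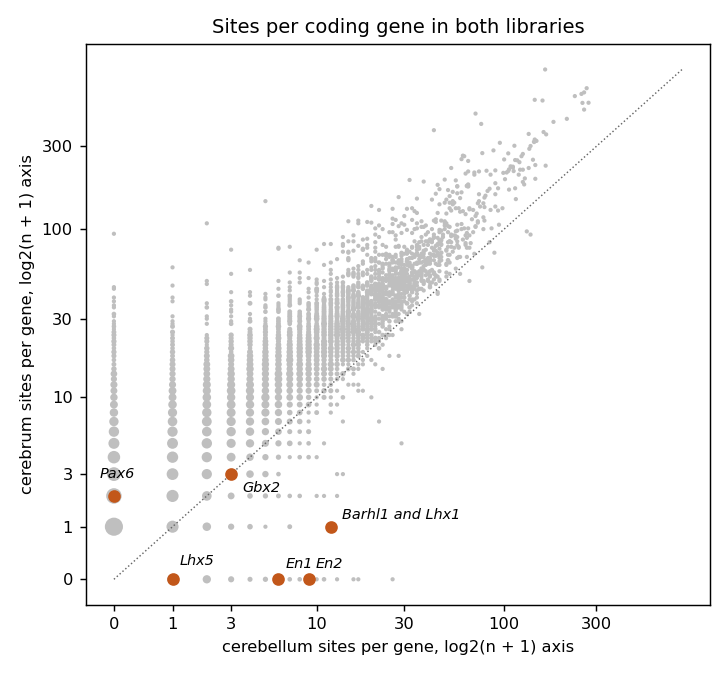
Each grey point is a pair of site counts per coding gene, cerebellum on the horizontal and cerebrum on the vertical axis (both log2(n + 1) axes labelled in sites), larger where more genes share the pair, with equal counts on the dotted line. The 7 members with a site are orange. En1, En2, Lhx5, Barhl1 and Lhx1 lie below the line, Gbx2 lies on it and Pax6 above it.

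The engrailed genes were listed in the cerebellum library alone. En1 encodes a homeobox repressor required early for the midbrain and cerebellum, and its gene lies on chromosome 1, plus strand, from 120602418 to 120607992 (GRCm38, as all coordinates here). All 6 of its sites lay in exon 2 of 2. Position 120607138 and position 120607170 were in the coding sequence, 51 and 19 nt before the end of the stop codon. The sites at 120607424, 120607442, 120607457 and 120607562 were in the 3′ UTR, 235, 253, 268 and 373 nt downstream of it. Both sides of the stop codon of this 2624 nt isoform were thus listed. Only the site at 120607442, with the 5-mer TCACT, was outside DRACH.

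En2, which refines cerebellar foliation and is the later and more cerebellar of both paralogs, lies on chromosome 5, plus strand, from 28165694 to 28172166. All 9 sites were in the 3′ UTR, which makes up 1731 nt of the 3539 nt isoform, and En2 had no coding site. A first group lay at positions 28170717, 28170791, 28170798, 28170848 and 28170876, between 282 and 441 nt past the stop codon. Position 28171058 followed at 623 nt, and a second group at 28171487, 28171499 and 28171524 lay between 1052 and 1089 nt past it. The site at 28170848, with the 5-mer CCAAA, was the one outside DRACH. The tightest pair of En2 and the distal group are shown because each holds neighbouring listed adenosines, 7 nt apart in the pair and 12 and 25 nt apart in the distal group. Bases are given 5′ to 3′ on the transcript strand with T for U, and capitals mark the 5-mer centred on the listed adenosine.
En2, 356 nt downstream: ccattatgGGACAttggacac
En2, 363 nt downstream: gggacattGGACActtcttcc
En2, 1052 nt downstream: agctacctTGACTttcaaagg
En2, 1064 nt downstream: tttcaaagGAACTcgaatcct
En2, 1089 nt downstream: aatctagaGGACAtgtgtaaa
The first pair repeats the same 5-mer, GGACA, and both of its adenosines were listed, 7 nt apart. Of the 28 DRACH adenosines in the 3′ UTR of En2, 8 were listed, against 3 of 16 in En1.

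Between the engrailed paralogs only coding sites were aligned, and En2 had none, so a shared aligned site was not possible. Their 3′ UTRs were not aligned. Their translated coding sequences aligned over 324 codons, of which 182 (56.2%) were identical. The listed adenosine of En1 at 120607138 is the third base of codon 385, a glycine codon, and the aligned codon 308 of En2 also encodes glycine. The windows differed at C5A and A11C, counted from 1 at the 5′ end of the En1 window, and A11C falls on the listed adenosine. The second En1 site, in aspartate codon 396, aligned with glycine codon 319 of En2 and carried A11G there. These windows are shown to compare the paralogs base by base.
En1 codon 385: tggcccagGGACTgtacaacc
En2 codon 308: tggcacagGGCCTgtacaacc
En1 codon 396: acggttcaGGACAaagacgag
En2 codon 319: gccaaggaGGGCAagtcggac
Thus neither listed coding adenosine of En1 has an adenosine at the aligned base of En2 in GRCm38.

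Barhl1, a homeobox factor of the rhombic lip and of granule cell precursors, lies on chromosome 2, minus strand, from 28907679 to 28916668. Its 12 cerebellum sites lay in the first and last exons of a 3666 nt isoform, with 3 in the 5′ UTR, 6 in the coding sequence and 3 in the 3′ UTR, the last of them 729 nt past the stop codon in a 3′ UTR of 1949 nt. It was the only member with listed coding sites in a first exon. There, 4 sites in a 1199 nt exon fell in codons 57, 91, 100 and 104, before the homeobox at codons 178 to 237. A further 2 coding sites, in codons 292 and 302 of the last exon, lay after it. The windows of the first-exon group are shown for their place in the coding sequence, and their positions on chromosome 2 are 28915510, 28915409, 28915381 and 28915369. They were chosen after their values were seen.
Barhl1 codon 57: cccggaagAGACTgtctggag
Barhl1 codon 91: ccagtcgcGAACTgtcacctc
Barhl1 codon 100: ctgatcagGGACAtccttgct
Barhl1 codon 104: atccttgcTGACTgcaaacct
All 4 are DRACH, with 4 different 5-mers, and the last 2 are 12 nt apart. In codons 57, 100 and 104, which encode aspartate, the methylated A was the second base of the codon.

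The single Barhl1 site of the cerebrum library, at position 28916365 in the 5′ UTR, was not among the cerebellum sites. It had the 5-mer CGATT, outside DRACH, and its window is shown because it runs into a stretch of T.
Barhl1, 5′ UTR, cerebrum: cccaagttCGATTtttttttt
With DRACH sites alone, Barhl1 would therefore have 11 cerebellum sites and 0 cerebrum sites.

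Lhx1, a LIM-homeobox factor of Purkinje cells, lies on chromosome 11, minus strand, from 84518284 to 84525535. Of its 12 sites, 1 was in the 5′ UTR of the first exon at 84525346. The other 11 were in the last of 5 exons. Positions 84519736 and 84519595 were in the coding sequence, in codons 345 and 392, after the homeobox at codons 180 to 239. The 3′ UTR held 9 sites, at 84519406, 84519320, 84519241, 84519237, 84519010, 84518991, 84518964, 84518699 and 84518532, between 143 and 1017 nt past the stop codon. Only 84519320, with the 5-mer ACACT, was outside DRACH. The last of them was the 1 Lhx1 site of the cerebrum library, so that its most distal site was the one listed in both tissues. It is shown with the closest pair of all members, 4 nt apart.
Lhx1, 308 nt downstream: ggatccatGGACAgactccac
Lhx1, 312 nt downstream: ccatggacAGACTccaccagc
Lhx1, 1017 nt downstream, both libraries: tcaaaaacAAACTtttgagca

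Lhx5, the paralog that acts with Lhx1 in Purkinje cell differentiation, had 1 site, in the cerebellum library. It lay at position 120440563 of chromosome 5, plus strand, 238 nt downstream of the stop codon in exon 5 of 5, with the 5-mer GAACT. The coding sequences of Lhx1 and Lhx5 were closer than those of the engrailed genes, with 307 of 398 aligned codons identical (77.1%). As the only Lhx5 site is in the 3′ UTR, neither coding site of Lhx1 could have a listed counterpart in Lhx5. The adenosine of Lhx1 codon 345 has a counterpart in Lhx5 codon 343, which also encodes aspartate, but T9C, counted from 1 in the Lhx1 window, turns TGACA into CGACA, which is outside DRACH. Codon 392 of Lhx1, asparagine, aligned with codon 387 of Lhx5, glycine, and the substitution at the listed base was A11G.
Lhx1 codon 345: cgatttacTGACAtcctggca
Lhx5 codon 343: agattcacCGACAtgatctcg
Of the 4 coding sites of En1 and Lhx1, then, 3 had no adenosine at the aligned base of the paralog and 1 had an adenosine outside DRACH. The windows of En1 codon 396 and Lhx1 codon 392 differed from the paralog at 12 and 10 of 21 bases, so the aligned base is uncertain there. Both of these paralog windows also hold an unlisted DRACH adenosine at another base, in GGACA of En2 and GGACC of Lhx5.

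Gbx2, which sets the anterior limit of the hindbrain against Otx2, lies on chromosome 1, minus strand, from 89927956 to 89931179. Its sites were confined to the 664 nt of its 3′ UTR in both libraries. Positions 89928393 and 89928308, 227 and 312 nt downstream of the stop codon, were listed in both. Position 89928411, at 209 nt, was listed in the cerebellum and position 89928557, at 63 nt, in the cerebrum. Of the 7 members with a site, Gbx2 had the lowest share of DRACH, since GTACA at 89928411 and GTACT at 89928308 are outside the motif, and GTACT was listed in both tissues. The 2 shared sites are shown for that contrast.
Gbx2, 227 nt downstream, both libraries: ctctatctAGACTggatctca
Gbx2, 312 nt downstream, both libraries: ccaccactGTACTctgtcgcc

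Pax6, a paired-box factor of granule cell precursors and of cortical radial glia, lies on chromosome 2, plus strand, from 105668900 to 105697364. It had 2 sites, both in the cerebrum library and in the last exon, at 105696421 and 105696786. On the longest transcript with a complete coding sequence, which has 254 codons, the first is coding and lies 94 nt before the end of the stop codon. In the other 8 of 9 complete coding isoforms both sites are in the 3′ UTR. On the one with the longest coding sequence, of 436 codons, they lie 66 and 431 nt downstream of the stop codon. Both are DRACH with a GGAC core.
Pax6, first site: gactatgtGGACAcagcagtt
Pax6, second site: tagtttatGGACTgatgttcc
Pax2, the paralog of Pax6 that marks the boundary region and later the GABAergic interneuron precursors, had no site in either library, and neither had the bHLH genes Atoh1 and Ptf1a. Pax2 lies on chromosome 19 from 44756045 to 44837871, and its longest coding transcript holds 62 exonic DRACH adenosines. Atoh1, on chromosome 6 from 64729125 to 64731245, holds 40, and Ptf1a, on chromosome 2 from 19445663 to 19447501, holds 24. All 3 genes are on the plus strand, and the motif itself was thus present in each.

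Shared features were then read across the 47 sites. All 47 lay at an A of GRCm38 and on an exon of the longest transcript of the member with a complete coding sequence, against 73.7% of all cerebellum sites and 63.0% of all cerebrum sites on coding isoforms. Introns held 0 of them, but 16.7% and 24.0% of all sites of each library. Both comparisons are uneven by construction. Member sites were taken only inside coding genes and on their strand, while all sites include noncoding, antisense and intergenic positions. DRACH accounted for 37 of the 43 cerebellum sites, or 86.0% (72.1% to 94.7%), and 5 of the 7 cerebrum sites, or 71.4% (29.0% to 96.3%). Over all sites on coding isoforms, it accounted for 75.1% in the cerebellum and 63.3% in the cerebrum, within both intervals. The 7 sites outside DRACH were spread over En1, En2, Barhl1, Lhx1 and Gbx2, with 7 different 5-mers.

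Few sites were common to the libraries. Of the 43 cerebellum sites, 3 were in the cerebrum list, or 6.98% (1.46% to 19.1%), against 60.8% of all cerebellum sites. With 7 cerebrum sites in the members, at most 7 of the 43 could be shared. This share therefore could not come near 60.8% and restates the difference in site counts. The same 3 were 42.9% of the 7 cerebrum sites (9.90% to 81.6%), against 25.6% of all cerebrum sites. They came from Lhx1 and Gbx2, and En1, En2 and Lhx5, with no cerebrum site, could not contribute.

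By region, the cerebellum sites were in the 3′ UTR in 29 of 43 cases, or 67.4% (51.5% to 80.9%), in the coding sequence in 10, or 23.3% (11.8% to 38.6%), and in the 5′ UTR in 4, or 9.30% (2.59% to 22.1%). Over all cerebellum sites on coding isoforms, the shares were 56.3%, 40.9% and 2.82%. The coding share of the members was thus the one whose interval lay below the value over all sites, while the 5′ UTR share rested on 3 sites of Barhl1 and 1 of Lhx1. In the cerebrum, 5 sites were in the 3′ UTR, 1 in the coding sequence (Pax6) and 1 in the 5′ UTR (Barhl1).

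**Figure D3:**
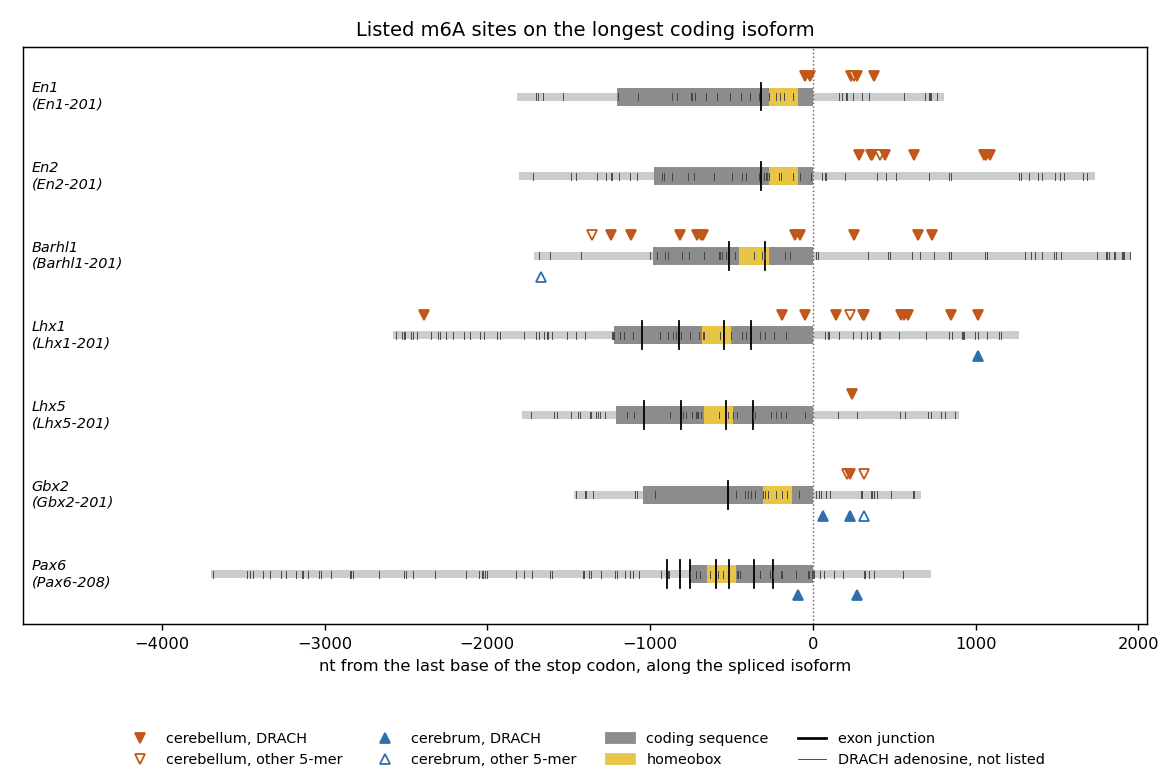
The horizontal axis gives nt along the spliced isoform from the last base of the stop codon, and each row is the longest transcript with a complete coding sequence of a member with a site (light grey UTR, dark grey coding sequence, yellow homeobox, black lines exon junctions, thin ticks unlisted DRACH adenosines). Orange triangles above are cerebellum sites and blue triangles below are cerebrum sites, open where the 5-mer is outside DRACH. En2 and Gbx2 carry sites downstream of the stop codon alone, and Barhl1 carries them on both sides of the homeobox.

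Sites were then placed by exon. Of the 47 sites, 38 were in last exons, 9 in first exons (8 of Barhl1 and 1 of Lhx1) and 0 in internal exons, and the exons that carried them were from 973 to 2244 nt long. In the cerebellum, these shares were 81.4%, 18.6% and 0%, against 69.6%, 3.41% and 24.1% over all sites on coding isoforms. En1, En2 and Gbx2 have 2 exons each and so could hold no internal site. No site was closer than 152 nt to an exon junction, with a median of 680 nt, whereas 10.97% of all cerebellum sites and 16.2% of all cerebrum sites on spliced coding isoforms were within 100 nt of one. In the 6 members with a cerebellum site, 46 exonic DRACH adenosines lay within 100 nt of a junction and 0 were listed, which allows up to 7.71%. At over 100 to 200 nt, 5 of 39 were listed, or 12.8% (4.30% to 27.4%), and beyond 200 nt 32 of 238, or 13.4% (9.38% to 18.4%). The 7221 coding genes with a listed exonic DRACH adenosine were also lowest next to junctions, at 1.30% within 100 nt, 13.2% from there to 200 nt and 8.80% beyond. By exon, 30 of 179 DRACH adenosines of last exons were listed, or 16.8% (11.6% to 23.1%), 7 of 114 of first exons, or 6.14% (2.504% to 12.2%), and 0 of 30 of internal exons, which allows up to 11.6%. Over the 7221 genes, these shares were 8.46%, 4.21% and 3.83%. The members' share lay above that of all genes, beyond its interval, in last exons, beyond 200 nt from a junction and in the 3′ UTR, where 24 of 133 were listed, or 18.05% (11.9% to 25.6%), against 7.71%.

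**Figure D4:**
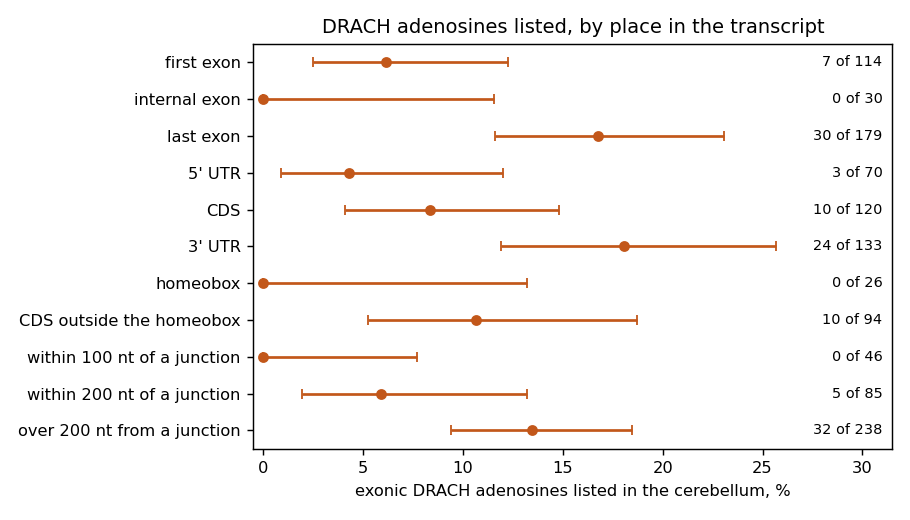
Points give the percent of exonic DRACH adenosines of the 6 members with a cerebellum site that were listed in the cerebellum library (horizontal axis) by place in the transcript (vertical axis), bars the exact 95% interval, and the numbers at the right the adenosines listed of those present. Internal exons, the homeobox and the 100 nt next to a junction had 0 listed, while last exons had 30 of 179.

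The homeobox, which encodes the DNA-binding homeodomain, was free of listed sites. It was placed in the translated sequence by the conserved residues of the third helix, and found in En1, En2, Barhl1, Lhx1, Lhx5, Gbx2 and Pax6. Of the 11 coding sites, 4 lay before it, all in Barhl1, and 7 after it. In the 6 members with a cerebellum site, the homeobox held 26 DRACH adenosines, of which 0 were listed, which allows up to 13.2%, against 10 of 94 in the rest of the coding sequence, or 10.6% (5.22% to 18.7%). These intervals overlap, so a difference was not detectable with these numbers of adenosines.

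The share of DRACH adenosines listed in the cerebellum was also taken per member. Barhl1 had 11 of 61 listed, or 18.03% (9.36% to 29.98%), En2 had 8 of 57, or 14.04% (6.26% to 25.8%), Lhx1 had 11 of 84, or 13.1% (6.72% to 22.2%), and En1 had 5 of 41, or 12.2% (4.08% to 26.2%). These shares were not separated by their intervals. Lhx5 had 1 of 44, or 2.27% (0.0575% to 12.02%), and Gbx2 had 1 of 36, or 2.78% (0.0703% to 14.5%). These intervals also overlap those of the 4 genes before. Pax6 had 0 of 80 listed, which allows up to 4.51%, and Pax2 had 0 of 62, up to 5.78%. Atoh1 had 0 of 40, up to 8.81%, and Ptf1a had 0 of 24, up to 14.2%. For genes with 0 listed, no methylation cannot be told from no expression or thin coverage. Over the 7221 genes, the median was 4.67%, with quartiles at 2.30% and 8.93%. Thus 4 members stood above the upper quartile, Gbx2 stood between the lower quartile and the median, and Lhx5 stood just under the lower quartile.

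By sequence, GGACA with 9 sites and GGACT with 7 were the most frequent 5-mers. No other was seen at more than 4 sites. Of the 43 cerebellum sites, 8 were GGACA and 6 were GGACT. Over all cerebellum sites, GGACA made up 6.22% and GGACT 8.13%, beside 8.25% for GAACT and 7.94% for AGACT. The last base of the motif went with the share listed. Of the DRACH adenosines of the 6 members with a cerebellum site, 21 of 92 ending in T were listed, or 22.8% (14.7% to 32.8%), 12 of 110 ending in A, or 10.9% (5.77% to 18.3%), and 4 of 121 ending in C, or 3.31% (0.908% to 8.25%). Over the 7221 genes, the order was the same, at 12.3%, 4.54% and 2.78%. In last exons, 6 of the 13 adenosines in GGACT and 6 of the 20 in GGACA were listed. Of the 15 in GGACC, 1 was listed. Of the 12 listed sites ending in A, 8 were GGACA, so that the share of that class rested on 1 sequence.

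Distances between neighbouring listed sites of a member in the cerebellum were measured along the transcript. Of 37 gaps between neighbours, 15 were of at most 50 nt and 2 of at most 10 nt, the pairs of En2 and Lhx1 shown above. Gaps over all genes were not counted, so whether such spacing is particular to the members is not known. The median gap was 32 nt in En1, 39 nt in En2 and 51.5 nt in Gbx2, against 118 nt in Barhl1 and 141 nt in Lhx1. The largest gaps were 254, 429, 85, 565 and 2204 nt in the same order. Barhl1 and Lhx1 have sites in first and last exons, so their gaps also span the exons between. These medians rest on 5 gaps in En1, 8 in En2 and 2 in Gbx2. For every site, the 41 nt around it, with A turned to G as in GLORI reads, was found in transcripts of its own gene and of no other gene, so the listed positions of paralogs can be told apart at that length. No gene of another symbol lay on the same strand at any site.

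Other regulators of cerebellar development were counted in the same way. Of 35 genes, 20 had a site in the cerebellum and 21 in the cerebrum, 7 had more in the former, 17 more in the latter, 2 as many in each and 9 none in either. Over all coding genes with a site, 4.51% had more in the cerebellum and 4.49% as many in each. Tfap2b, which acts in GABAergic precursors, had 26 cerebellum and 0 cerebrum sites. Those more frequent in the cerebrum included Meis2 with 37 cerebellum and 111 cerebrum sites, Foxp2 with 53 and 93, Zic4 with 4 and 24, Neurod1 with 0 and 23 and Tbr1 with 0 and 25. Zic1 (19 and 22) and Rora (52 and 55) were close to equal. The genes with no site were Fgf8, Fgf17 and Wnt1, the secreted signals of the boundary, and Pax8, Lmx1b, Neurog1, Tlx3, Skor2 and Nhlh1. Other genes of the boundary region were Pax5 with 10 and 0 sites, Pax7 with 6 and 0, and Otx2, which opposes Gbx2 there, with 13 and 3.

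En1, En2 and Lhx1 are also expressed in the midbrain, and genes of that tissue were listed beside them. Of 18 midbrain and tectal genes, a list written after part of these counts had been seen, 12 had cerebellum sites and 4 had cerebrum sites, with 80 sites in all against 30. More cerebellum sites were found in 10, more cerebrum sites in 1 (Nr4a2, with 12 and 24) and as many in each in 1 (Gata2, with 1 and 1). Pou4f2 and Sox14 had 11 and 0, Gata3 had 9 and 0, and Tal1 had 8 and 0, whereas Th, Foxa2, Pitx3, Lmx1b, Phox2a and Tal2 were listed in neither. Pou4f2, Sox14, Gata3, Tal1 and Pax7 are among the 22 coding genes with at least 6 cerebellum and 0 cerebrum sites. As the list was written with counts partly seen, its excess of cerebellum sites describes these genes and gives no independent support. Of 11 genes of the granule cell lineage, a list written at the same time, 1 (Barhl1) had more cerebellum than cerebrum sites and 6 had more cerebrum sites. Of all coding genes with a site, 4.51% had more cerebellum sites and 4.49% as many in each. More cerebrum sites is thus the usual pattern, and the granule cell count is near it. Atoh1, Nhlh1, Cbln3 and Gabra6 had none in either. The part of midbrain tissue in the counts of En1, En2 and Lhx1 was not tested.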

How the data were processed

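The deposited files list, per the labels and the methods of the study, m6A sites that the authors called with GLORI-tools on mm10 and on a copy of mm10 carrying PWK bases, united per library and filtered on methylation rate and read count. The unit of the deposited values is another one than a level or a count, namely a genomic position with its strand. All lines were checked for a length of 1 nt. Sequences came from GRCm38, the assembly mm10 names, and gene models from GENCODE M21, which is not the release the study names. Counts per gene are listed positions within the gene interval on its strand. Regions come from the longest transcript with a complete coding sequence that covers a site. Paralogs were aligned as translated GENCODE coding sequences with Biopython 1.88 (BLOSUM62, gap opening 11, extension 1), since RefSeq protein sequences were not used here. Tools were Python 3.11.15, numpy 2.4.6, scipy 1.17.1, pysam 0.24.0, samtools 1.23.1 and matplotlib 3.10.9. On 5780 simulated sites of 578 coding isoforms, 99.72% of regions and 99.98% of DRACH calls were recovered.

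The genes and lists were chosen with earlier results of these data known. Every site of a member with at most 12 sites was given its position, and other regulators were named where they had at least 20 sites in a library or 0 in both, with Pax5, Pax7 and Otx2 named after their values were seen. Alternatives changed the motif, isoform, strand, tolerance and exon set. With 1 library per tissue, no test was run.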

Additional observations from a re-analysis of the deposited data

How the results depend on the processing

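No paired analysis was possible because each tissue has 1 library, and for the same reason no replicate could be left out. Of 50 alternative values, 44 stayed within the interval of the value reported or within 1.5 times the count. Several of these could not move. Members without a listed DRACH adenosine keep that share in last exons, and exonic settings change nothing because every member site is exonic. With last exons alone, the share of exonic DRACH adenosines listed in the cerebellum was 10.5% over all members instead of 6.99% and 27.8% in Lhx1 instead of 13.1%, and the share listed in the cerebrum was 10% in Pax6 instead of 2.5%; last exons hold 30 of the 37 DRACH adenosines listed in the cerebellum. On the isoform with the longest coding sequence, the coding share of the cerebrum sites was 0%, because the first Pax6 site moves to the 3′ UTR. With DRACH sites alone, the 5′ UTR share of the cerebrum sites was 0%, and 2 members instead of 1 had more sites in the cerebrum, since Gbx2 then has 1 cerebellum and 2 cerebrum sites. A stricter threshold on rate or depth could not be run, because the lists hold neither.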
